A study of Mus musculus with 10 samples.

Results

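Binding sites of ZFP266 were examined at 35 integrin and focal adhesion genes, of the 21774 protein-coding genes of the RefSeq annotation of GRCm38. The members were a list of genes by name: 18 integrin α subunits, 8 integrin β subunits and 9 proteins of focal adhesions, and all 35 were found in the annotation. A peak was assigned to a gene when it met the gene or lay within 10 kb of it. In total, 49 of the 15119 peaks of the study's list belonged to 18 of these genes.

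Integrins are cell surface receptors made of 1 α and 1 β subunit that hold cells to the extracellular matrix or to other cells. The α subunit largely sets the ligand, and the tail of the β subunit is bound inside the cell by talin and kindlin, which switch the receptor to its active form. At focal adhesions, clustered integrins are tied to actin filaments through talin, vinculin and the complex of ILK with parvin, while FAK and paxillin carry signals from the site. Fibroblasts are rich in such contacts, and loss of their mesenchymal, matrix-bound form is a known early step of reprogramming to pluripotency.

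The peaks came from DamID-seq in mouse embryonic fibroblasts (MEFs) of strain 129 that were wild type. In this method, the bacterial methyltransferase Dam, fused to a protein of interest, methylates GATC sites near the places where the protein sits. One group of 5 samples was nucleofected with PGK-mO-Dam, which expresses Dam alone, and the other 5 with PGK-mO-Dam-Zfp266, which expresses Dam-ZFP266. Both plasmids carry mOrange as the first reading frame behind the PGK promoter and rely on translation reinitiation for low Dam levels. Sorted cells (mOrange+ in the labels, GFP+ in the paper's methods) were collected 48 h later, with 32 ng of DNA per library. The ZFP266 measured was therefore the fusion protein from a plasmid, beside the protein that the cells make themselves.

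All 10 samples were combined by the authors into 1 list of peaks of Dam-ZFP266 over Dam, so no value of a single sample, no read depth and no spread between replicates was at hand, and no difference below was tested. The list holds no expression values either, so the labelled cell type could not be checked against its markers. Each peak carries a signal value that sets Dam-ZFP266 against Dam, whose scale is not stated, and a q-value. Every q was at most 0.1, and 3986 peaks (26.4%) had both q under 0.05 and a signal value above 1. Such peaks are called strict here, with cut-offs modelled on those in the methods, although nothing says that the signal value is a log2 fold change. All 15119 peaks start and end at a GATC, and 55.7% of them are a single fragment between neighbouring sites, so a peak marks a stretch with a median of 1777 bp and not a binding site to the base. At *Zfp266* itself the plasmid gave 5 peaks with signal values up to 8.66, whereas no peak elsewhere passed 2.79.

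The sequences at the centres of 4 of the 5 member peaks with the highest signal values are shown first, since they are among the strongest sites at these genes. Each is the 300 bases around the midpoint of the peak on the plus strand of GRCm38, from the RefSeq genome. Capitals in the second mark a GATC inside the peak, and those in the last mark an AP-1 core (TGACTCA on either strand). None of the 4 windows touched an exon.
*Itgb1* intron 1 chr8:128704961-128705260: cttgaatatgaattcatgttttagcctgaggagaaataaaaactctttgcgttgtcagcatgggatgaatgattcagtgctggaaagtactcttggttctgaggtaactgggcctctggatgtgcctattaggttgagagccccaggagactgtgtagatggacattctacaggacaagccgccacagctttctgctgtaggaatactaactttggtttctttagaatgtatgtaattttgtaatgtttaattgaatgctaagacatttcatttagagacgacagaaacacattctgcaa
*Fermt2* intron 3 chr14:45495829-45496128: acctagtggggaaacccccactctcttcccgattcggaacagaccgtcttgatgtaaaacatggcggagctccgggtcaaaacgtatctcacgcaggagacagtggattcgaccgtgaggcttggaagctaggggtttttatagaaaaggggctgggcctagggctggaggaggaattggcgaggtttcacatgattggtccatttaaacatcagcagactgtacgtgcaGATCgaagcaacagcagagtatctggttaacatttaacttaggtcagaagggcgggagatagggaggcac
*Itgb4* intron 7 chr11:115982186-115982485: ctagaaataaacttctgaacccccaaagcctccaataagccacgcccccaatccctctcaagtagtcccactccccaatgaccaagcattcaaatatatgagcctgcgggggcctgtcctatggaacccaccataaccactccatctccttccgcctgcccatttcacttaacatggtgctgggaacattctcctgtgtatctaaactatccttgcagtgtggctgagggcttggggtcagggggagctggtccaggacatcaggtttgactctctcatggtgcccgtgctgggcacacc
*Tln2* chr9:67584573-67584872: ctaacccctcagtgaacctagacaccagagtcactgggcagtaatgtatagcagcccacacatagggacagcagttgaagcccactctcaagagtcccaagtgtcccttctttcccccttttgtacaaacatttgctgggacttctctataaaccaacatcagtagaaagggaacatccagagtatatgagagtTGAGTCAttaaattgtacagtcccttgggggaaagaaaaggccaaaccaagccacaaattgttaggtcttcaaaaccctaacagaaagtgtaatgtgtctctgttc

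The 4 windows shown differed in composition. The *Fermt2* window was mostly repeat sequence, with 82.0% of bases in lower case in the masked genome. The windows of *Itgb1* (0.0%), *Tln2* (6.3%) and *Itgb4* (11.3%) held little of it. GC content ran from 40% in the *Itgb1* window to 53.7% in that of *Itgb4*. Only the *Tln2* window of these had an AP-1 core. Over the whole length of the 5 peaks with the highest signal values, the repeat share ran from 8.9% at *Itgb1* to 67.8% at the *Fermt2* peak in intron 4. That peak is not among the 4 shown, and the *Fermt2* peak in intron 3 had 57.1%. The median of all peaks was 24.5%.

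Of the 35 genes, 18 (51.4%) had a peak in the gene or within 10 kb, where 27.1% of all protein-coding genes did. Within the gene itself the count was 16 (45.7%), against 17.4% of all genes and 31.4% of genes of similar length, which corresponds to 11 of 35. These genes are long, with a median of 62.5 kb against 17.2 kb over all genes, and long genes meet more peaks. Among protein-coding genes within 20% of the length of each member, 39.5% had a peak, which corresponds to 13.8 of 35 genes. The members carried 49 peaks where genes of their length would carry 30.5. With the number of peaks in the surrounding 1 Mb also made similar, the corresponding figures were 15.4 genes and 34.2 peaks. This second comparison was chosen after the data had been seen. With the peaks of each gene itself left out, members lay in regions with a median of 8 peaks within 500 kb of the middle of the gene, and all genes in regions with 6.

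**Figure D1:**
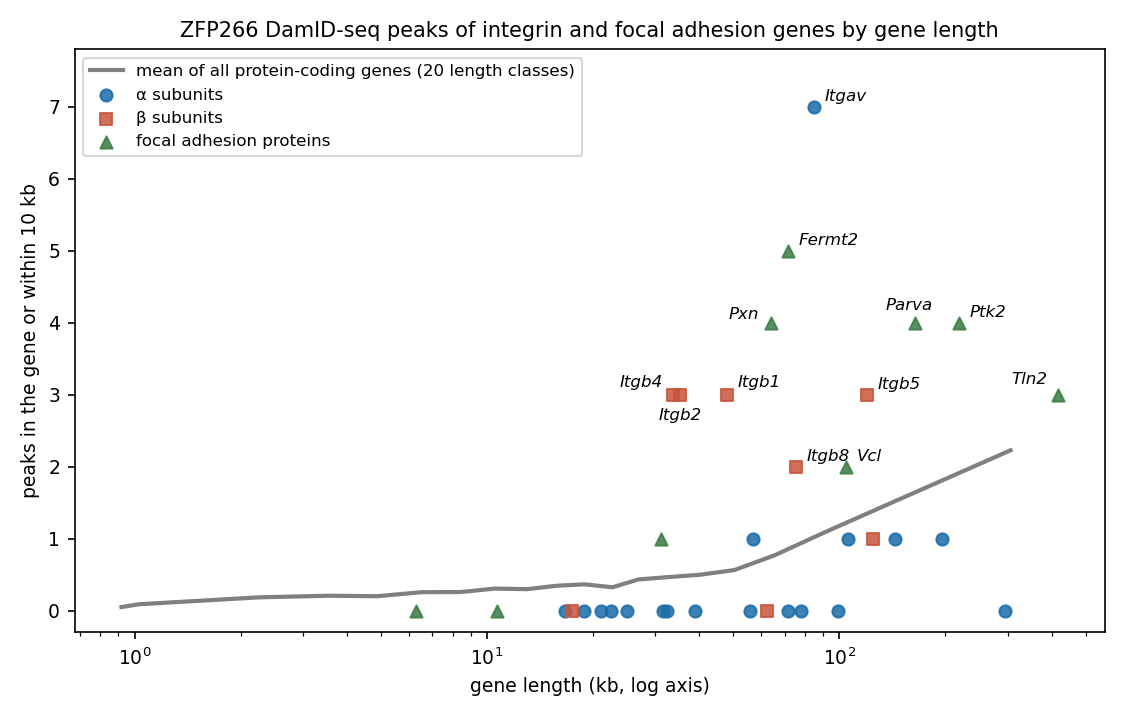
Peaks in or within 10 kb of each of the 35 genes (y axis, number) against gene length (x axis, kb, log scale), with α subunits as circles, β subunits as squares and focal adhesion proteins as triangles, and the mean of all protein-coding genes in 20 length classes as a grey line. *Itgav* with 7 peaks and *Fermt2* with 5 stand highest above the line, and 17 genes sit at 0.

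The excess over genes of similar length was not shared by all roles. The α subunits were below it, with 5 of 18 genes (27.8%) having a peak, against 38.7% of genes of similar length. Among β subunits 6 of 8 (75%) had a peak, against 37.9%. Among focal adhesion proteins the count was 7 of 9 (77.8%), against 42.5%. In peaks, the α subunits had 11 where 14.9 correspond to their lengths, the β subunits 15 against 6.08, and the focal adhesion proteins 23 against 9.50. Most of the α peaks were at 1 gene, since 4 lay outside *Itgav*. With regional peak number made similar as well, the figures were 17.7 peaks for α subunits, 6.46 for β subunits and 10.1 for focal adhesion proteins. Counting only peaks in the gene itself, the α subunits were close to genes of similar length, with a share of 27.8% against 30.3%. The in-gene shares were 62.5% against 29.5% for β subunits and 66.7% against 35.1% for focal adhesion proteins. The groups hold 8 to 18 genes, and the difference between them was not tested.

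**Figure D2:**
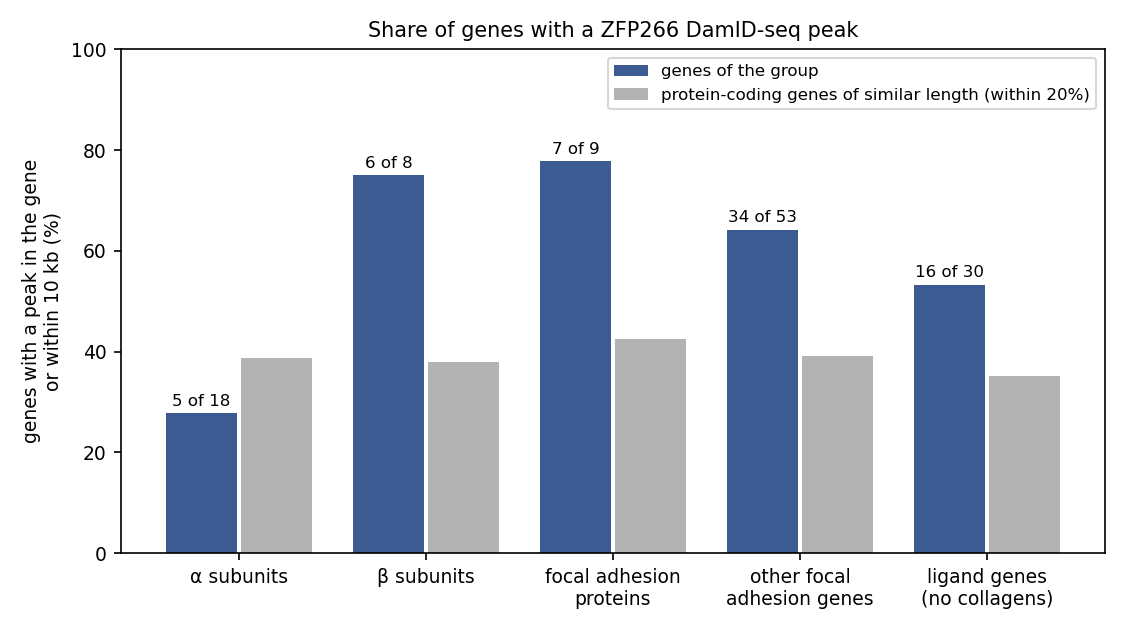
Share of genes with a peak in the gene or within 10 kb (y axis, percent) for the 3 groups of members and for the lists of other focal adhesion genes and of integrin ligand genes, with dark bars for the group and grey bars for protein-coding genes within 20% of the same lengths. The α subunits (5 of 18) are the only group of the 5 whose dark bar is lower than the grey one.

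Among α subunits that bind the RGD sequence of fibronectin and vitronectin, *Itgav* and *Itga8* had peaks, and *Itga5* and *Itga2b* did not. *Itgav* encodes αv, which pairs with several β subunits and binds vitronectin, fibronectin and latent TGF-β. It had 7 peaks, the most of any member, in and before a gene of 84.6 kb on the plus strand (chr2:83722303-83806917). Of 1334 genes of similar length, 1.5% had at least as many, and their mean was 1.01. Over all protein-coding genes, 167 had 7 or more. The strongest peak by signal value lay 8335 bp before the gene (chr2:83711726-83713968, signal value 1.25, q = 5.01e-05). It ranked 31st of 15119 by q-value and 1504th by signal value. Distances here are from the outermost start of the gene span. The promoter sequence at hand for *Itgav* ends further in, at chr2:83724396, and measured from there this peak lies beyond the 10 kb limit. Next came a peak in intron 1 (chr2:83731374-83733353, 1.02, q = 0.0183) and one 4843 bp before the gene (chr2:83716202-83717460, 0.97, q = 0.0328). The other 4 lay in introns 2 and 3, with signal values of 0.55 to 0.84. Altogether the 7 peaks stood in 40 kb around the 5′ end of the gene and covered 11779 bp, and none was found in the remaining part of the gene towards its 3′ end. A pair of the intron 2 peaks also met *Dnmt3l-ps1*, a pseudogene inside the intron.

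*Itga8*, which encodes α8, the partner of β1 in kidney and smooth muscle, had a single peak in its intron 24 (chr2:12170971-12172313). Its signal value was 0.84, with q = 0.0912, near the limit of the list. *Itga5*, whose product forms the main fibronectin receptor of fibroblasts with β1, had none, and its nearest peak was 48231 bp away. For *Itga2b*, the platelet subunit αIIb, the nearest peak was at 23180 bp.

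Neither the laminin-binding nor the α4-class subunits had a peak. The laminin-binding genes *Itga3*, *Itga6* and *Itga7* had their nearest peaks at 13508, 61829 and 20129 bp. Genes of their lengths would give 0.956 genes with a peak, so an outcome of 0 of 3 lies close to the background. *Itga4* and *Itga9* encode subunits that bind VCAM-1, osteopontin and fibronectin variants. *Itga9* is 294.3 kb long and 65.5% of genes of similar length had a peak, yet the nearest one was 198928 bp away. For *Itga4* the distance was 212786 bp, the largest among the 35 genes.

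Of the collagen-binding subunits, *Itga1* and *Itga11* had 1 peak each, and *Itga2* and *Itga10* had none. The *Itga1* peak was in intron 1 (chr13:115090883-115093831, signal value 0.77, q = 0.0787). The *Itga11* peak met the last exon, exon 30 (chr9:62783202-62784038, 0.96, q = 0.0758), and was the only member peak with its midpoint in an exon. *Itga11* encodes α11, a collagen receptor of mesenchymal cells. *Itga1* and *Itga2* are neighbours, 25978 bp apart, and the nearest peak to *Itga2* was 96109 bp away. The length of these genes would correspond to 4.26 peaks, and 2 were found.

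The leukocyte subunits, which T cells, myeloid cells and other blood cells carry, had 1 peak among 5 genes. Genes of their lengths would give 1.54 genes with a peak and 2.56 peaks, so this too lies close to the background. The peak lay in intron 26 of *Itgae* (chr11:73135228-73136232, signal value 0.84, q = 0.0938), at a place where *Haspin*, a kinase gene, sits within *Itgae*, so the peak cannot be given to either gene. *Itgal*, *Itgam*, *Itgax* and *Itgad* had none. The last 3 lie side by side on chromosome 7, 11034 and 23275 bp apart, and so share 1 region rather than giving independent observations.

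The β subunits showed peaks at *Itgb1*, *Itgb2*, *Itgb4*, *Itgb5*, *Itgb6* and *Itgb8*, and not at *Itgb3* or *Itgb7*. *Itgb1* encodes β1, the partner of most α subunits and the main β chain of fibroblast matrix receptors. Its 3 peaks all lay in intron 1 of 15, within 3.7 kb, and all were strict. They were chr8:128701751-128702261 (signal value 1.12, q = 0.033), chr8:128702754-128703633 (1.14, q = 0.0133) and chr8:128704774-128705446 (1.45, q = 0.00442). The last also reached into exon 2. Of genes of similar length, 4.88% had 3 or more peaks. These were short peaks of 511 to 880 bp, 16.4 to 19.5 kb from the gene start.

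*Itgb2*, the common β chain of leukocyte integrins, was the only one of the 35 genes with its start inside a peak, as 1.53% of all genes have. That peak (chr10:77529211-77532136) covered exon 1 and had a signal value of 0.72 and q = 0.0563. The other 2 lay behind the gene, at 2379 bp (chr10:77568087-77571254, 0.67, q = 0.0424) and 5715 bp (chr10:77571423-77571931, 0.96, q = 0.0908). None of the 3 was a strict peak.

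*Itgb4* encodes β4, the hemidesmosome subunit of epithelia. It had 1 strict peak, which lay mostly in intron 7 and met exons 8 and 9 (chr11:115981255-115983415, signal value 1.41, q = 0.0148). A pair of weaker peaks lay before the gene, at 6311 bp (chr11:115966402-115968414, 0.99, q = 0.0699) and at 3968 bp (chr11:115970314-115970757, 0.75, q = 0.0872).

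The β chains that pair with αv were *Itgb3*, *Itgb5*, *Itgb6* and *Itgb8*, besides *Itgb1*. *Itgb5* had 3 intronic peaks, of which that in intron 4 was strict (chr16:33875735-33877404, signal value 1.15, q = 0.0474). The others were close together in introns 10 and 11 (chr16:33938741-33940597, 0.90, q = 0.0568, and chr16:33941157-33941780, 1.10, q = 0.0599). *Itgb8*, whose product activates latent TGF-β with αv, had 2 strict peaks, both before the gene and none in it. These were chr12:119241125-119242365 at 2849 bp (1.11, q = 0.0213) and chr12:119247711-119248790 at 9435 bp (1.27, q = 0.00692). *Itgb6*, an epithelial subunit, had 1 in intron 1 (chr2:60694115-60696870, 0.87, q = 0.0708), which also met the predicted gene *Gm33436*. *Itgb3* had its nearest peak 45049 bp away, and *Itgb7* 109135 bp away.

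Among the proteins that act on the integrin tail, kindlin-2 (*Fermt2*) stood out by the strength and density of its peaks. *Fermt2* (chr14:45458792-45530310, minus strand, 71.5 kb) had 5 peaks, all in introns 2 to 4, and they covered 9.95% of the gene. Of 1449 genes of similar length, 3.04% had at least as many, with a mean of 0.802. All 5 had q under 0.05 and 3 were strict. These were chr14:45479757-45480231 in intron 4 (signal value 1.49, q = 0.0139, the highest signal of all member peaks), chr14:45495066-45496890 in intron 3 (1.43, q = 0.00321) and chr14:45497204-45498168 in intron 3 (1.05, q = 0.00469). The other peaks had signal values of 0.72 and 0.95. Talin, the other activator, had fewer peaks at both of its genes. *Tln2*, at 417.0 kb the longest of the 35, had 3 peaks, and 28.9% of genes of similar length had at least as many. Its strict peak (chr9:67583904-67585541, 1.40, q = 0.00305) and the neighbouring one (chr9:67578006-67582223, 0.90, q = 0.0724) lay 49.3 and 53.9 kb from the gene start, in an intron of a predicted transcript only. The third was 4749 bp behind the gene (chr9:67210431-67212336, 0.73, q = 0.0472). *Tln1*, the talin found in nearly all cells, had 1 strict peak 5956 bp behind it (chr4:43522822-43525557, 1.13, q = 0.0217), and this peak also met *Tpm2*, a tropomyosin gene.

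The signalling and scaffold proteins of the adhesion had many peaks of moderate strength. *Pxn* encodes paxillin, the docking scaffold, and had 4 peaks, and 3.23% of genes of similar length had at least as many. The strongest was 203 bp before the gene (chr5:115491436-115491767, signal value 1.05, q = 0.0796), closer to a gene start than any other member peak except that of *Itgb2*. The start in question is that of a predicted transcript. It was followed by 2 in intron 1 (chr5:115523907-115524417, 0.93, q = 0.0493, and chr5:115518700-115521207, 0.88, q = 0.0251). *Ptk2*, the gene of focal adhesion kinase, had 4 peaks over 218.7 kb, and 16.2% of genes of similar length had at least as many. The top 3 were chr15:73192818-73195755, 9347 bp behind the gene (0.98, q = 0.00602), chr15:73409552-73410568 in intron 1 (0.93, q = 0.0387) and chr15:73378654-73381317 in intron 2 (0.76, q = 0.0564).

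Parvin and ILK work in 1 complex but differed in the list. *Parva* encodes α-parvin, which links ILK to actin, and had 4 peaks. Of genes of similar length (164.0 kb), 14.7% had at least as many. The top 3 by signal value were chr7:112423091-112424215, 3491 bp before the gene (0.96, q = 0.0902), chr7:112511601-112512750 (0.92, q = 0.0873) and chr7:112448835-112454981 (0.85, q = 0.0158). The last spans 10 fragments between GATC sites and 6147 bp, the longest of the 49, and met the predicted gene *Gm45998*. All 3 peaks inside *Parva* lay in intron 1 of 12. *Ilk*, a gene of 6.3 kb, had no peak within 30363 bp.

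*Vcl* encodes vinculin, which joins talin to actin. It had 2 peaks, 1 at 3975 bp before the gene (chr14:20923653-20925408, signal value 0.58, q = 0.0129) and 1 in intron 1 (chr14:20965240-20967060, 0.46, q = 0.056). The second had the lowest signal value of the 49. *Zyx*, the gene of the actin regulator zyxin, had its nearest peak 181511 bp away.

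**Figure D3:**
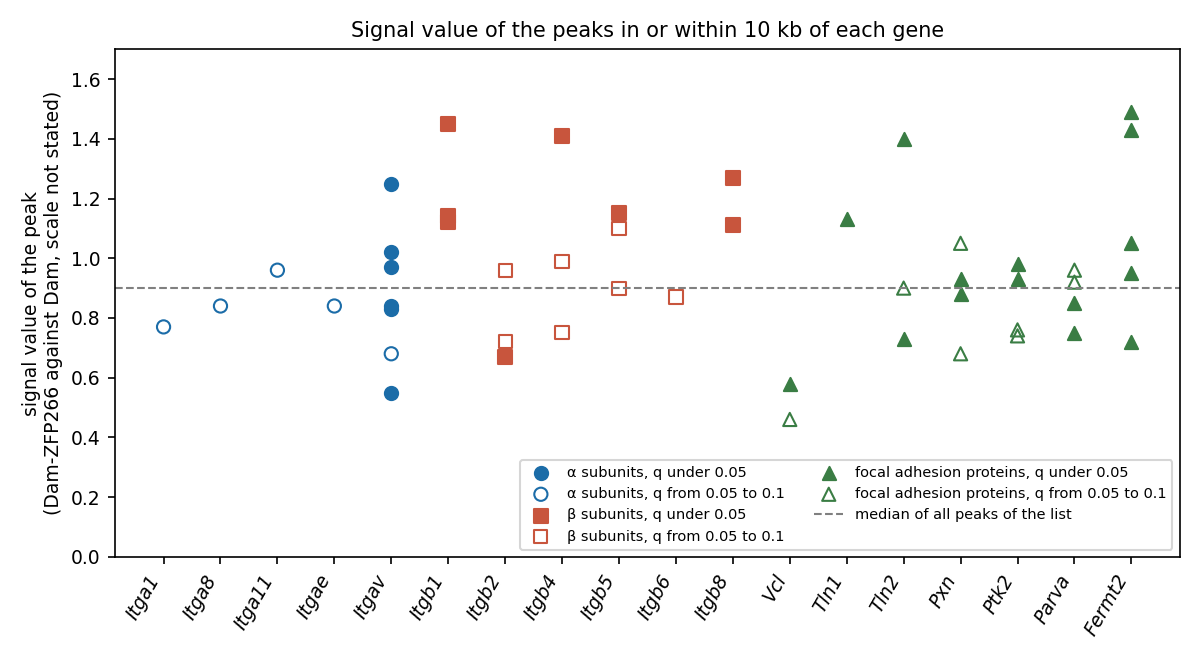
Signal value (y axis, Dam-ZFP266 against Dam, scale not stated) of each of the 49 peaks, by gene (x axis) and coloured by group, with filled symbols for q under 0.05, open symbols for larger q, and the median of all 15119 peaks (0.90) as a dashed line. The values run from 0.46 at *Vcl* to 1.49 at *Fermt2*, and the single peaks of *Itga1*, *Itga8*, *Itga11*, *Itgae* and *Itgb6* are all open.

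As a set, the 49 peaks were ordinary in strength. Their median signal value was 0.93, against 0.90 over all peaks, and their median q was 0.0387, against 0.0467. Of the 49, 14 (28.6%) were strict, near the 26.4% of the whole list. These 14 stood at 8 genes, namely *Fermt2* and *Itgb1* (3 each), *Itgav* and *Itgb8* (2 each), and *Itgb4*, *Itgb5*, *Tln1* and *Tln2* (1 each). Strict peaks were found at 10.1% of all genes. Median length was 1756 bp, against 1777 bp, and median GC content 45.9%, against 43.5%. Genes with 3 or more peaks were 10 of the 35 (28.6%), and 1188 (5.46%) of all genes, which are shorter in the median. Of the 18 genes with a peak, 6 had 1 and 2 had 2. Of the 17 without, 8 had their nearest peak within 50 kb. *Itgb8* and *Tln1* had peaks in the flanks only, and the 10 kb limit left out *Itga3*, with a peak at 13508 bp, as the nearest case, while the farthest peak let in was that of *Itgb8* at 9435 bp.

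Peaks lay inside the genes more than around their starts, as they did over all pairs of a gene and a peak. Of the 49, 31 (63.3%) had their midpoint in an intron of a curated transcript, 9 lay upstream, 5 downstream, 3 in introns of predicted transcripts and 1 in an exon. No midpoint was in a promoter of a curated transcript, taken as 1000 bases before to 100 after its start, where 2.69% of all pairs of a gene and a peak were. At that share, 0 of 49 lies close to the background. The *Pxn* peak 203 bp before the gene is counted as upstream, since only a predicted transcript starts there. Over all such pairs, 58.0% were in introns, 18% upstream and 15.8% downstream. Of the 31 intronic peaks, 14 were in intron 1, including all of *Itgb1* and all of those inside *Parva*. The share in intron 1 over all genes was not counted, so no preference can be read from this. An exon was met with any base by 6 peaks (12.2%), near the 13.6% of all such pairs.

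**Figure D4:**
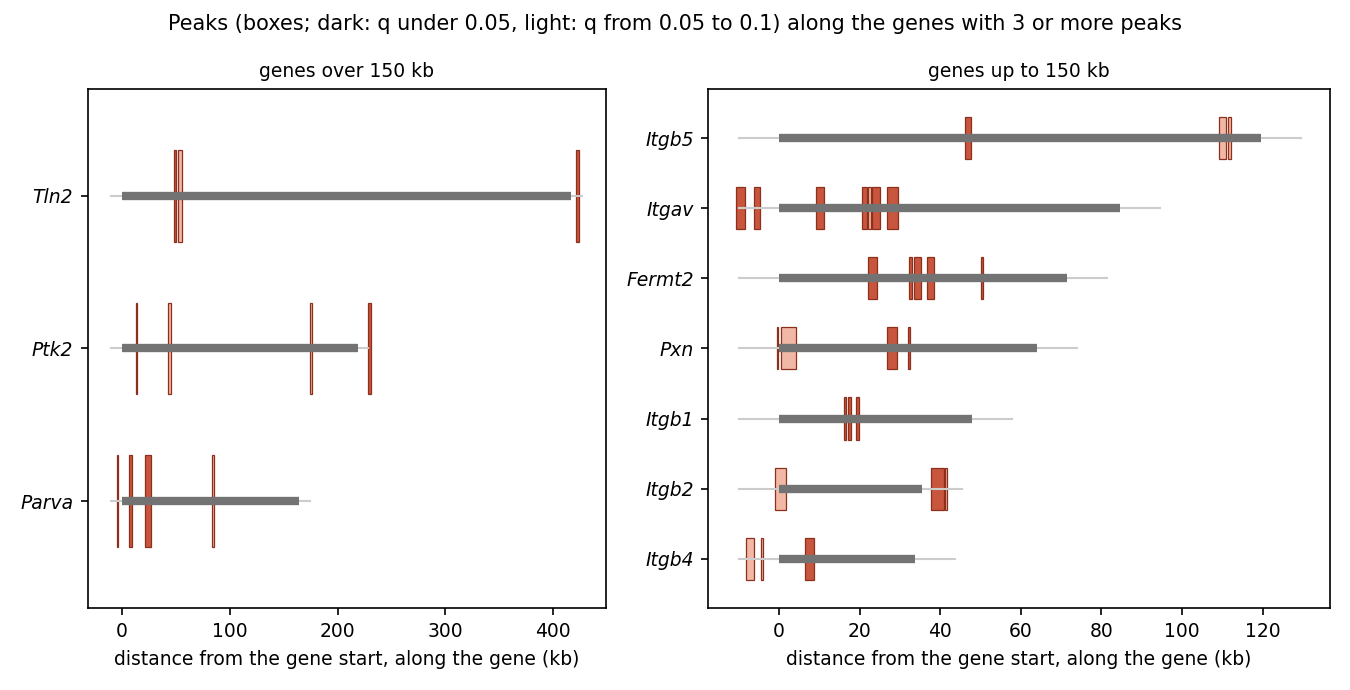
Position of the peaks (boxes, dark for q under 0.05 and light for larger q) along the 10 genes with 3 or more peaks, drawn from the gene start to its end (grey bar, x axis in kb, flanks of 10 kb as thin lines). Peaks of *Itgav* gather at the start of the gene and before it, those of *Fermt2* between 23.2 and 50.3 kb, and those of *Itgb1* between 16.4 and 19.5 kb from the start.

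The AP-1 core, the letters bound by FOS and JUN dimers that are abundant in fibroblasts, occurred in 19 of the 49 peaks (38.8%). This was not above the list, where 44.2% of all peaks and 40.4% of peaks of similar length held it. In the central 500 bases, 12 peaks (24.5%) had a core, against 15.7% of all peaks. The 13 cores whose first base lay within 250 bases of a midpoint are shown with their surroundings, as 30 bases on the plus strand with the core in capitals.
*Itga8* chr2:12171824-12171853: ggccataattcTGAGTCAagagaggggcaa
*Itgav* intron 1 chr2:83732468-83732497: tgactactttgTGACTCAgccttctcctga
*Itgav* intron 2 chr2:83746458-83746487: ttctcaacccgTGAGTCAtgactcttatgg
*Itgb1* chr8:128704939-128704968: cacagaaaaaaTGAGTCAgaaccttgaata
*Itgb4* chr11:115970471-115970500: taaacacaggcTGAGTCAcgggtgacctaa
*Itgb5* chr16:33876529-33876558: tttgctggctaTGAGTCAcatagaatttgt
*Vcl* chr14:20924390-20924419: aaattgtacatTGACTCAtttgtgcacaaa
*Tln2* chr9:67584756-67584785: tatatgagagtTGAGTCAttaaattgtaca
*Pxn* before the start chr5:115491724-115491753: ttttagttaatTGAGTCAaggaggctgagg
*Pxn* after the start chr5:115494330-115494359: tccagaccagtTGACTCAgaatgtctgggg
*Ptk2* chr15:73410278-73410307: gagagtatgccTGACTCAaagcaacagatg
*Parva* first match chr7:112423684-112423713: ttccaaagtgtTGACTCAcctcgcaatggg
*Parva* other match chr7:112423779-112423808: tctggttatttTGAGTCAtgttttccgaca
These 13 cores stood at 10 genes. A match is a description of the letters and not a bound site. The core nearest to a midpoint was in the second *Pxn* peak, 19 bases before it, and that of *Itgb5* was 29 bases before it. In *Itgb1* the core belonged to the strongest of the 3 peaks, 160 bases before the midpoint. Neither *Fermt2* peak among the strongest had a core.

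CArG boxes, which serum response factor binds at many actin and adhesion genes, were in 2 of the 49 peaks (4.08%), at *Tln1* and *Tln2*, against 11.2% of all peaks and 9.77% of peaks of similar length. The box within 250 bases of a midpoint is shown with its letters in capitals.
*Tln1* chr4:43524369-43524398: tcttttctgcCCTTTTTTGGgatgtttccc
It lay 190 bases after the midpoint of the *Tln1* peak, which also met *Tpm2*. Whether the box itself lies in *Tpm2* was not determined.

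Genes that work beside the members were counted in the same way. Of 53 other focal adhesion genes, 34 (64.2%) had a peak within 10 kb, against 39.1% of genes of similar length, with 97 peaks where 47.3 correspond to their lengths. Among those with 4 or more were *Lpp*, a zyxin relative, with 14, the PINCH gene *Lims1*, the Src family kinase *Fyn*, the α-actinin *Actn1* and the tensin *Tns3* with 6 each, the vinexin relative *Sorbs2* with 5, and *Nedd9* and *Tes* with 4 each. These counts are not set against length gene by gene, and several of the genes are long. *Lpp* spans 599.2 kb, *Sorbs2* 320.1 kb, *Tns3* 233.1 kb and *Fyn* 195.6 kb, while *Dock1*, at 503 kb, had 0 peaks. *Lims1* is the third part of the complex of ILK and parvin, of which *Ilk* had no peak. In the same list, its relative *Lims2* and the parvin genes *Parvb* and *Parvg* had 0 peaks, as had *Rsu1* (194.5 kb). Of 30 genes of integrin ligands other than collagens, 16 (53.3%) had a peak, against 35.1%, with 40 peaks where 22.5 correspond to their lengths. The laminin chain gene *Lamc1* had 14 of these and *Vcam1*, the ligand of α4β1, had 4.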

How the data were processed

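DamID-seq was measured in 5 samples with Dam-ZFP266 and 5 with Dam. Reads went through FastQC, and the authors then trimmed adapters (Cutadapt), mapped to GRCm38 with BWA (GRCm38.p6 in the submitters' processing notes), dropped mitochondrial and blacklisted alignments, assigned the rest to DpnII fragments (Rsubread) and ran callPeak of Daim. The versions of FastQC, Cutadapt, BWA, Rsubread and Daim are not given in the sources used here. Of the deposited list, which pools the samples, the score of the caller, the signal value (taken as a score, since its scale is unstated) and the −log10 q-value were used. Read coverage was not analysed here, and depth is unknown, so counting precision cannot be given.

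Peaks were assigned to RefSeq gene spans, and to promoters, exons and introns of 45756 curated transcripts by their midpoint. Similar length means within 20% of a member's length, and each member counts once in the mean share. The AP-1 core (TGACTCA or TGAGTCA) and the CArG box were exact matches on both strands. Python 3.11.15, numpy 2.4.6, pandas 2.3.3, samtools 1.23.1 and matplotlib 3.10.9 were used, and the counting steps were tested on simulated peaks. The members and lists were chosen with earlier results of these data known. All members are named, with every peak up to 3 per gene, or the 3 with the highest signal value. Genes of the other 2 lists are named with 4 or more peaks, or with 0 peaks to set beside a named gene. Other genes are named where a member peak meets them. Some items that these rules select are not reported here. Alternatives covered distance, peak strictness, annotation, length band and motif window.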

Additional observations from a re-analysis of the deposited data

How the results depend on the processing

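No paired analysis was possible because the list pools all 10 samples, and for the same reason no replicate could be left out. Of 26 alternatives, 20 stayed near the value reported and 6 moved. The limit for near was wide: counts of 12 and 26 members in place of 18, and of 35 peaks in place of 49, were within it. With strict peaks only (q under 0.05 and signal value above 1), 8 genes had a peak within 10 kb (5.57 correspond to genes of similar length, a share of 15.9%) and 6 had one in the gene (4.18). With the 50% of peaks that had the higher score, 8 genes had a peak in the gene (6.95). At 50 kb the share in genes of similar length was 58.5%, and 26 members had a peak (20.5 correspond). In the central 500 bases, 24.5% of member peaks had an AP-1 core. The order of members and genes of similar length did not turn in any alternative that had both. Without *Itgav* and *Fermt2*, 37 peaks stood against 28.7. Joining peaks under 1 kb apart left 42, and leaving out peaks that met another gene, an alternative chosen after the data had been seen, left 43. For neither of these was a figure for genes of similar length recomputed. Neighbouring peaks may be 1 site, and no test across samples could be run.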

Other observations

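Promoter sequences from the RefSeq table (250 bases before to 50 after a start, GRCm38.p6) were at hand for 23 of the 35 members, with 26 promoters. None of the 26 met a peak, where 2.14% of all promoters in the table did, so 0 of 26 lies close to the background. The table held neither *Itgb2*, whose start lies in a peak, nor *Pxn*, with a peak 203 bp before the start of a predicted transcript, so the count leaves out the members with peaks nearest to a start. An AP-1 core was found in promoters of 3 members, *Itga9*, *Itgax* and *Zyx*, none of which had a peak, and 5.20% of all 32851 promoters held one. A CArG box was found in promoters of 3 members, *Vcl*, *Fermt2* and *Itgb6*, and 1.63% of all promoters held one. The promoters with a match at *Itga9* and *Itgb6* lie inside the gene spans, and the *Itgb6* promoter at the gene start held no CArG box. The peaks of *Vcl*, *Fermt2* and *Itgb6* themselves held no CArG box.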
